A study of Xiphophorus maculatus with 24 samples.

Results

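Daily expression of the 3 photolyase genes of the platyfish *Xiphophorus maculatus* was followed in skin: cpd photolyase (ENSXMAG00000004751), cry-dash (ENSXMAG00000009285) and cry5 (ENSXMAG00000017096). They were taken by identifier from a table of 24209 genes, and all 3 passed the filter on low counts in every fit. Sunlight joins neighbouring pyrimidine bases in DNA into cyclobutane pyrimidine dimers (CPDs) and 6-4 photoproducts. A photolyase binds such a lesion and uses the energy of visible or near-ultraviolet light to split it in a single step, so skin repairs by this route only while it is lit. In other animals, CPD photolyase reverses CPDs in double-stranded DNA, Cry-DASH reverses CPDs in single-stranded DNA, and zebrafish Cry5 is the 6-4 photolyase. All belong to the protein family that also holds the cryptochromes of the circadian clock. In zebrafish, transcription of photolyase genes and of the clock gene per2 is switched on by light through a promoter element called the D-box, which is bound by the factors Tef, Dbp, Hlf and Nfil3.

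Each of the 24 libraries was made from the skin of 1 untreated male of strain Jp 163 A, an inbred line, kept under 13 h of light and 11 h of dark. The 24-month collection, named here for the age its labels give, held 2 libraries at each of 8 clock times: 8AM, 11AM, 2PM, 5PM, 8PM, 11PM, 2AM and 5AM. Its labels letter the fish of 8AM, 2PM, 8PM and 2AM from m to w. The fish of its other clock times are lettered from ab to ak. What sets these runs of letters apart is not given. The 12-month collection held 2 libraries at each of 8AM, 2PM, 8PM and 2AM. The libraries of the 2 collections were also dated to different years, so age and year cannot be told apart. The study's methods give a single age for all fish, that of the second collection, so the age of the first is in doubt, and the names stand for the collections as labelled. In zeitgeber time (Zt, hours after lights on), the clock times ran from Zt 0.5 at 8AM to Zt 21.5 at 5AM in steps of 3 h, so 8AM to 8PM fell in the light period, 8PM shortly before its end, and 11PM to 5AM in the dark. Each fish gave skin at 1 clock time only.

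The libraries held 25736825 to 36066368 counts, and the 2 fish of every clock time differed by more than counting noise. One library stood apart, 5PM replicate A of the 24-month fish, in which 4849 of 13243 genes lay below 0.5 times the 24-month median (44 to 498 genes in each of the other 15). Its scaling factor by the trimmed mean of M values (TMM), used in all fits, was 0.617, whereas CPM, the usual depth-scaled counts, are given per plain library total. In it, the 2 keratinocyte markers that could be matched (krt5 and epcam, of 7 listed) summed to 25905 CPM and the 5 matched skeletal muscle markers (of 9) to 8462 CPM, against 38807 and 4354 CPM in 5PM replicate B. Over the whole set the muscle markers ranged from 2243 to 11572 CPM in 24-month fish and from 2378 to 4948 CPM in 12-month fish, and the keratinocyte markers from 16137 to 40587 CPM and from 35945 to 42001 CPM. Of 9 pigment cell markers 1 was matched and never passed 0.87 CPM, and none of 4 red blood cell markers was matched. Whether tissue makeup has a part in the values below was not tested, and in whole skin fewer cells of a type and less RNA per cell cannot be told apart.

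Cpd photolyase, the enzyme for CPDs in double strands, had 703 to 3604 reads per library with a median of 1604. In 24-month fish the gene stood at 38.5 and 33.5 CPM at 8AM, 112 and 91.6 CPM at 11AM and 91.3 and 94.2 CPM at 2PM. It then stood at 33.9 and 78.2 CPM at 5PM, 55.3 and 47.6 CPM at 8PM, 58.9 and 69.1 CPM at 11PM, 33.4 and 31.4 CPM at 2AM and 49.0 and 40.7 CPM at 5AM. The 4 libraries of 11AM and 2PM were above all other 24-month libraries and overlapped each other, while the 2AM pair lay below all others of that collection. In 12-month fish the gene stood at 29.9 and 30.5 CPM at 8AM, 104 and 102 CPM at 2PM, 58.9 and 64.7 CPM at 8PM and 25.1 and 28.4 CPM at 2AM. These 4 pairs did not overlap, and their order was 2PM, 8PM, 8AM, 2AM. Over the 8 clock times of 24-month fish the highest mean was 3.14 times the lowest (102 ± 14.3 CPM at 11AM and 32.4 ± 1.42 CPM at 2AM, SD, n = 2 each). Over the 4 of 12-month fish it was 3.86 times the lowest (103 ± 1.66 CPM at 2PM and 26.7 ± 2.31 CPM at 2AM). Over the 4 shared clock times the 24-month ratio was 2.86.

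Cry-dash, the enzyme for CPDs in single strands, had 69 to 769 reads per library with a median of 358. In 24-month fish it stood at 13.3 and 12.7 CPM at 8AM, 23.9 and 21.5 CPM at 11AM and 15.8 and 16.98 CPM at 2PM. From 5PM on it stood at 2.68 and 11.7 CPM, then at 8.91 and 9.15 CPM at 8PM, 8.40 and 8.84 CPM at 11PM, 9.59 and 7.499 CPM at 2AM and 9.17 and 9.32 CPM at 5AM. The 6 libraries of 8AM, 11AM and 2PM were therefore the 6 highest, in 3 pairs that did not overlap, and the 8 libraries from 8PM to 5AM lay between 7.499 and 9.59 CPM. In 12-month fish it stood at 14.7 and 14.1 CPM at 8AM, 16.5 and 17.9 CPM at 2PM, 15.6 and 13.3 CPM at 8PM and 11.6 and 11.0 CPM at 2AM. There the 2PM pair was highest and the 2AM pair lowest, and 8AM and 8PM overlapped. The ratio of highest to lowest mean was 3.16 over the 8 clock times of 24-month fish and 1.53 over the 4 of 12-month fish. The lowest 24-month mean was that of 5PM with the library that stood apart. Over the 4 shared clock times the 24-month ratio was 1.92.

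Cry5, the 6-4 photolyase, had 191 to 1017 reads per library with a median of 428. In 24-month fish it stood at 10.3 and 11.7 CPM at 8AM, 31.6 and 25.0 CPM at 11AM and 9.17 and 12.6 CPM at 2PM. In plain CPM the 11AM pair was above every other library of either collection, with 8AM and 2PM on both sides of it among the lower pairs. The TMM factor of 0.617 would raise the value of 5PM replicate A, so its place below the 11AM pair holds for plain CPM only. Later it stood at 16.5 and 17.6 CPM at 5PM, 15.2 and 13.5 CPM at 8PM, 10.8 and 14.2 CPM at 11PM, 10.8 and 6.15 CPM at 2AM and 15.9 and 17.4 CPM at 5AM. The pairs at 5PM and 5AM overlapped as the next highest, so cry5 had no single block of high values. The fish of 11AM, 5PM and 5AM all belong to the run lettered ab to ak, so clock time and run cannot be told apart here. In 12-month fish it stood at 13.99 and 14.9 CPM at 8AM, 19.9 and 21.7 CPM at 2PM, 10.6 and 13.4 CPM at 8PM and 15.6 and 14.1 CPM at 2AM. There the 2PM pair was above all others and 8AM overlapped 2AM. The ratio of highest to lowest mean was 3.33 over the 8 clock times of 24-month fish and 1.74 over the 4 of 12-month fish. Over the 4 shared clock times the 24-month ratio was 1.69.

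**Figure D1:**
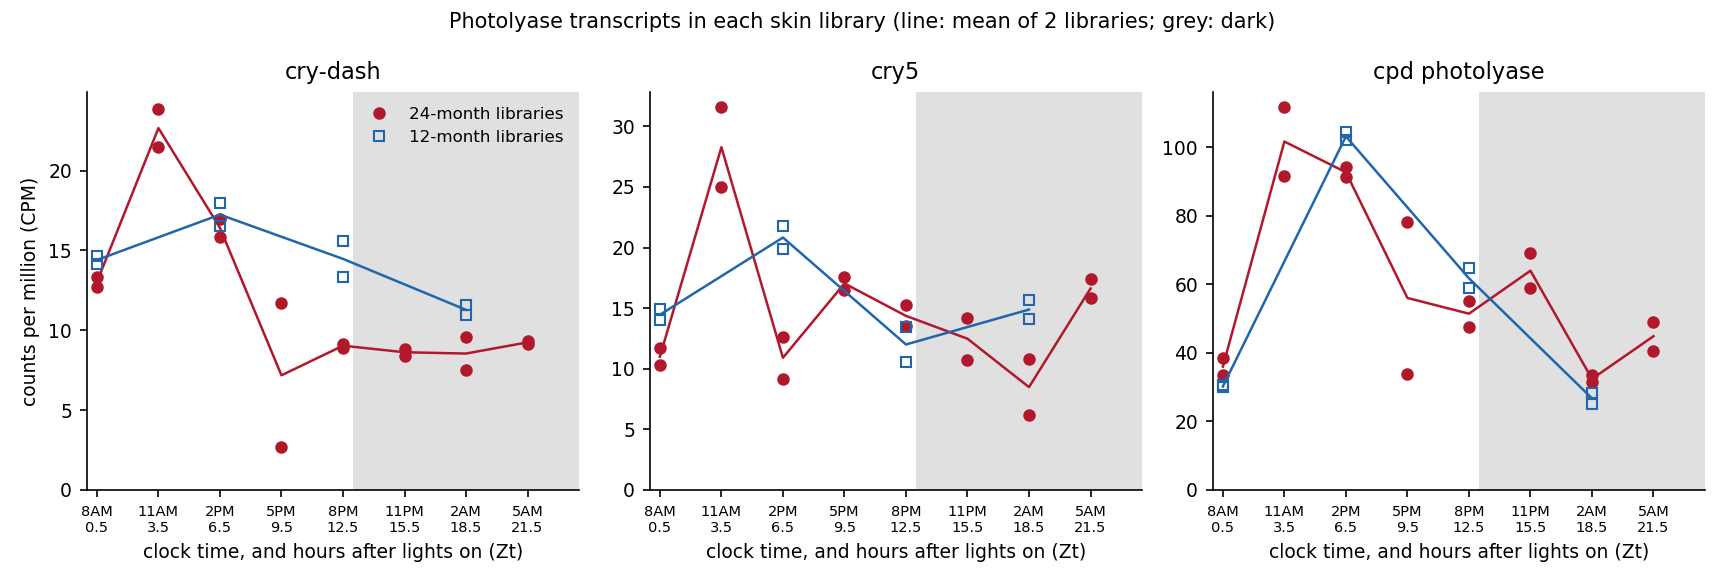
CPM of cry-dash, cry5 and cpd photolyase against clock time, 1 point per library, with a line through the mean of the 2 libraries of each clock time in each collection and the dark hours shaded. The 24-month means of all 3 genes peak at 11AM, a time not sampled in 12-month fish, where all 3 means peak at 2PM. In plain CPM, 5PM replicate A of the 24-month fish lies far below its partner for cry-dash (2.68 against 11.7 CPM) and cpd photolyase (33.9 against 78.2 CPM). For cry5 the 2 libraries lie close in plain CPM (16.5 against 17.6 CPM). The TMM factors, 0.617 for replicate A and 1.05 for replicate B, would raise replicate A relative to its partner for all 3 genes.

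The spread between the 2 fish of a clock time was 20.4%, 16.5% and 21.5% of the mean for cry-dash, cry5 and cpd photolyase in 24-month fish and 6.83%, 8.71% and 4.54% in 12-month fish (pooled SD). The 24-month values include the 5PM pair, on which those of cry-dash and cpd photolyase lean. Its SD was 6.36 CPM for cry-dash and 31.4 CPM for cpd photolyase, against at most 1.70 and 14.3 CPM at other 24-month clock times. For cry5 the SD at 5PM was 0.79 CPM. Levels of the 3 genes are not compared with each other, because CPM are not scaled to gene length.

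Whether each gene varied with time of day was tested at the 4 clock times that both collections share, over 16 libraries with the collection as a term (edgeR quasi-likelihood F test, adjusted over all 18935 genes tested). Cpd photolyase (adjusted p = 3.32e-06) and cry-dash (adjusted p = 0.00508) varied, and cry5 did not pass (adjusted p = 0.396). These are 2 of 3 genes where 17.2% of all genes passed. In each collection alone, edgeR gave adjusted p = 0.0242 for cpd photolyase, 0.0656 for cry-dash and 0.379 for cry5 in 24-month fish, and 1.47e-05, 0.00921 and 0.00606 in 12-month fish. Cry5 thus passed in the 12-month libraries only, where 8208 of 18995 genes passed, against 237 of 18848 in 24-month fish alone. The difference between collections is tested further on. A 24-h cosine over all 24 libraries gave a like division: cpd photolyase (edgeR adjusted p = 0.000199) and cry-dash (adjusted p = 0.0035) passed, as did 15.8% of all genes, and cry5 did not (adjusted p = 0.0666).

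The middle of the light was set against the middle of the dark by 2PM and 2AM, with 4 libraries on each side. Cpd photolyase was higher at 2PM by 1.77 on the log2 scale (SE 0.14, edgeR adjusted p = 2.99e-06). Cry-dash was higher by 0.83 (SE 0.13, edgeR adjusted p = 0.00373). Neither gene's 2PM libraries overlapped its 2AM libraries. How many of all genes lacked overlap, here and in later contrasts, is not given, so this is a description only. Cry5 differed by 0.49 (SE 0.23, edgeR adjusted p = 0.167), and its 4 libraries at 2PM (9.17 to 21.7 CPM) overlapped the 4 at 2AM (6.15 to 15.6 CPM). In this contrast 11.2% of all genes passed (5.23% higher at 2PM and 5.97% lower).

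Within a collection the 2PM difference of cpd photolyase was 1.51 (SE 0.16) in 24-month fish and 2.04 (SE 0.10) in 12-month fish, with edgeR adjusted p = 0.0125 and 1.18e-05. Cry-dash differed by 0.94 (SE 0.17) in 24-month fish and 0.70 (SE 0.12) in 12-month fish, with edgeR adjusted p = 0.0345 and 0.005. Both genes were thus higher at 2PM in each collection. Cry5 differed by 0.37 (SE 0.28, edgeR adjusted p = 0.457) in 24-month fish and by 0.57 (SE 0.14, edgeR adjusted p = 0.0223) in 12-month fish. It was past the threshold in 12-month fish alone, where 3913 of 18995 genes passed, against 931 of 18848 in 24-month fish alone.

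**Figure D2:**
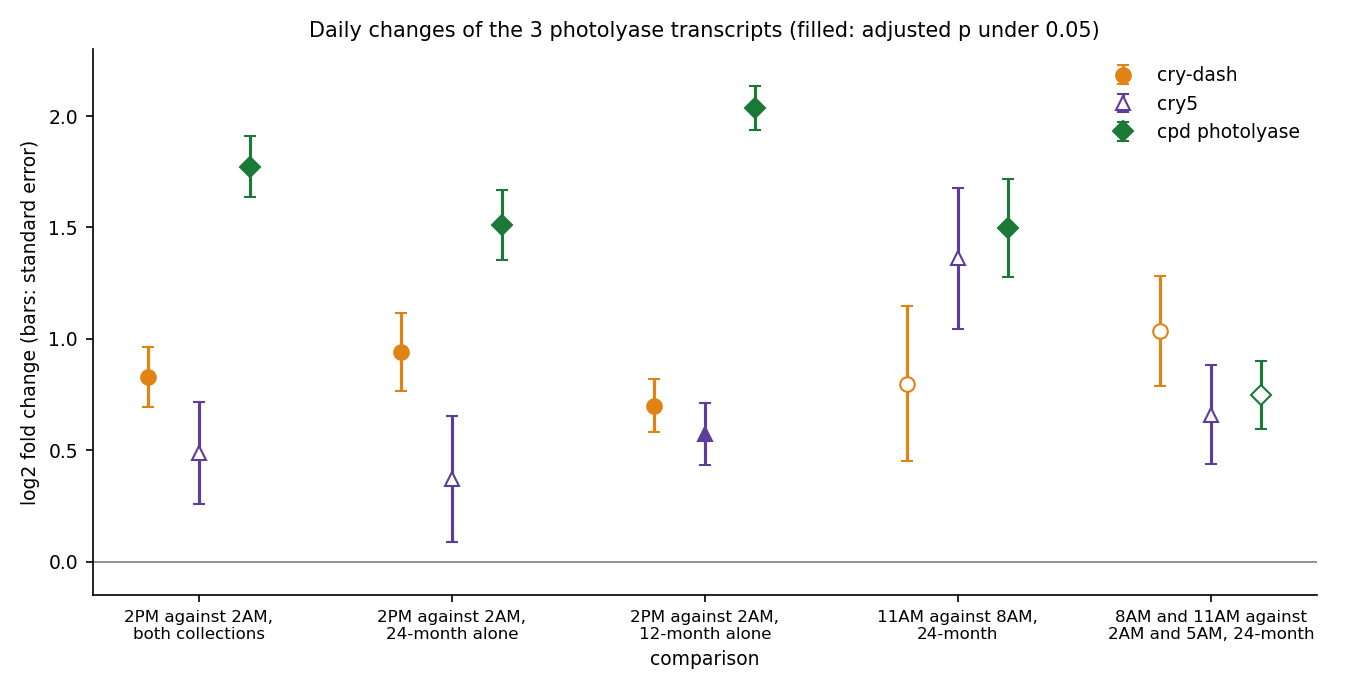
Log2 fold change with its standard error for cry-dash, cry5 and cpd photolyase in 5 contrasts: 2PM against 2AM over both collections, in 24-month fish and in 12-month fish, and, in 24-month fish, 11AM against 8AM and early light (8AM and 11AM) against late dark (2AM and 5AM). Filled symbols have an edgeR adjusted p under 0.05; cpd photolyase has the largest value at 2PM (1.77 over both collections), while cry5 comes close to it at 11AM against 8AM (1.36 against 1.499).

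In the other 5 pairs of shared clock times, cpd photolyase passed in 4 and cry-dash and cry5 in none. Cpd photolyase at 2PM exceeded 8AM by 1.56 (SE 0.14, edgeR adjusted p = 2.0e-05, where 12.3% of all genes passed), so it was still low shortly after lights on. At 8PM it was below 2PM by −0.86 (SE 0.13, edgeR adjusted p = 0.0114), a contrast in which 0.243% of all genes passed. It stayed above 8AM at 8PM by 0.70 (SE 0.13, edgeR adjusted p = 0.00452, 15.5% of all genes) and was lower at 2AM than at 8PM by −0.91 (SE 0.13, edgeR adjusted p = 0.00296, 3.83% of all genes). Its 2AM and 8AM levels differed by −0.21 (edgeR adjusted p = 0.625, 0.512% of all genes). The largest of the 5 differences for cry-dash was −0.62 for 8PM against 2PM (edgeR adjusted p = 0.091), followed by −0.54 for 2AM against 8AM (adjusted p = 0.12). Its 2PM and 8AM levels differed by 0.29 (edgeR adjusted p = 0.151). For cry5 the adjusted p of these 5 pairs lay between 0.437 and 0.964.

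Whether the genes changed unequally between 2PM and 2AM was asked through the ratio of 2 of them inside each library, a test chosen after the levels were seen. The log2 ratio of cpd photolyase to cry-dash was 2.54 ± 0.08 at 2PM and 1.59 ± 0.43 at 2AM (SD, n = 4 each), a difference of 0.95 with an exact two-sided permutation p of 0.0286, the smallest that 4 against 4 allows, and 0.0857 after adjustment over the 3 ratios. The ratio of cpd photolyase to cry5 was 2.71 ± 0.49 at 2PM and 1.42 ± 0.74 at 2AM (exact permutation p = 0.0571, adjusted 0.0857). The ratio of cry-dash to cry5 was 0.17 ± 0.53 at 2PM and −0.17 ± 0.32 at 2AM (exact permutation p = 0.257). None of the 3 ratios passed after adjustment.

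Peak times and amplitudes came from a separate 24-h cosine, fitted by least squares to log2(CPM + 0.5) per plain library total. The TMM factor of 5PM replicate A therefore does not enter them. These fitted cosines peaked in the light for all 3 genes. Over both collections the peak of cry-dash lay at Zt 3.59 (SE 1.18 h), that of cry5 at Zt 5.03 (SE 1.62 h) and that of cpd photolyase at Zt 7.60 (SE 0.76 h). Without 5PM replicate A of the 24-month fish the cry-dash peak lay at Zt 4.99 (SE 0.51 h) and the cpd photolyase peak at Zt 7.89 (SE 0.51 h). Cry-dash peaked at Zt 2.92 (SE 1.29 h) in 24-month fish and Zt 6.52 (SE 0.57 h) in 12-month fish, and cpd photolyase at Zt 6.83 (SE 1.31 h) and Zt 8.35 (SE 0.33 h). The 12-month libraries hold no sample between 8AM and 2PM, so their fitted peaks rest on 4 clock times. The log2 amplitude (mean to peak) was 0.70 (SE 0.14) for cpd photolyase, 0.46 (SE 0.14) for cry-dash and 0.30 (SE 0.13) for cry5.

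The 3-h steps of the 24-month collection followed the genes through the end of the dark and the morning. Every step sets fish lettered m to w against fish lettered ab to ak, so clock time and run cannot be told apart in it. At 5AM cry5 stood above its 2AM level by 0.93 (SE 0.32, edgeR adjusted p = 0.637). At 8AM cry-dash stood above its 5AM level by 0.60 (SE 0.35, edgeR adjusted p = 0.811). Neither difference was past the threshold, though the pairs did not overlap. With 2 fish on each side, a lack of overlap in these steps is a description only. From 8AM to 11AM cpd photolyase was higher at 11AM by 1.499 (SE 0.22, edgeR adjusted p = 0.0485), which put it among the 11 genes (0.0573%) of 19212 that passed. Cry5 was higher by 1.36 (SE 0.32, edgeR adjusted p = 0.124) and cry-dash by 0.80 (SE 0.35, edgeR adjusted p = 0.369), in both cases with 2 libraries at 11AM above both at 8AM. This fit shares 1 estimate of spread over all 8 clock times, and the 5PM pair, in which replicate A stood apart, enters it. Without both 5PM libraries, an alternative chosen after the data were seen, all 3 genes were higher at 11AM. The differences were then 1.49 for cpd photolyase (SE 0.17, edgeR adjusted p = 0.011), 1.36 for cry5 (SE 0.26, adjusted p = 0.0299) and 0.80 for cry-dash (SE 0.15, adjusted p = 0.0281), with 3.89% of all genes passing. Leaving out replicate A alone gave edgeR adjusted p of 0.0112, 0.0305 and 0.0289 for the same 3 genes, with 3.53% of all genes passing, and leaving out replicate B alone gave calls for all 3 too, with 3.98% of all genes. The cpd photolyase call with all 16 libraries was close to the threshold, since it was lost on leaving out any 1 of 12 of them (adjusted p 0.0112 to 0.581 over the 16).

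After 11AM no step of the 3 genes passed in edgeR. At 2PM cry5 was below its 11AM level by −1.40 (SE 0.32), its pairs apart (9.17 and 12.6 CPM at 2PM, 31.6 and 25.0 CPM at 11AM). The difference had an edgeR adjusted p of 0.436. No gene (0%) passed this step in edgeR, although 1656 had an unadjusted p under 0.05 and DESeq2 called 131, and without both 5PM libraries cry5 had an adjusted p of 0.116. DESeq2 gave the cry5 difference an adjusted p of 0.0109. Cry-dash differed by −0.49 (edgeR adjusted p = 0.726) and cpd photolyase by −0.16 (adjusted p = 0.87). Between 2PM and 5PM none of the 3 genes passed (edgeR adjusted p = 0.0868 for cry-dash, 0.0812 for cry5 and 0.158 for cpd photolyase), whereas 6.63% of all genes did. DESeq2 called cry-dash (−1.04, adjusted p = 0.0279) and cry5 (1.0025, adjusted p = 0.0232) in this step, among 3089 genes called of 19212, against 1274 called in edgeR. Without 5PM replicate B, 5PM rests on the library that stood apart. The edgeR differences were then −1.95 for cry-dash, against −1.07 with both libraries, 1.26 for cry5 and −0.79 for cpd photolyase. In the dark, cpd photolyase at 2AM was below 11PM by −0.90 (SE 0.22, edgeR adjusted p = 1.0), a step that 0.00521% of all genes passed.

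Early light, the mean of 8AM and 11AM, was also set against late dark, the mean of 2AM and 5AM, in 24-month fish. All 3 genes had positive differences, 1.04 for cry-dash (SE 0.25, edgeR adjusted p = 0.177), 0.75 for cpd photolyase (SE 0.15, adjusted p = 0.136) and 0.66 for cry5 (SE 0.22, adjusted p = 0.328), and none passed, as only 0.0989% of all genes did. For cry-dash the 4 libraries of early light (12.7 to 23.9 CPM) lay above the 4 of late dark (7.499 to 9.59 CPM). Without both 5PM libraries cry-dash (1.03, SE 0.11, edgeR adjusted p = 0.00274) and cpd photolyase (0.74, SE 0.12, adjusted p = 0.035) were higher in early light and cry5 did not pass (0.66, SE 0.19, adjusted p = 0.109), where 0.553% of all genes passed.

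The 2 collections differed for cry5 and cry-dash over the shared clock times. Cry5 was lower in 24-month than in 12-month fish by −0.49 (SE 0.16, edgeR adjusted p = 0.0239) and cry-dash by −0.34 (SE 0.10, edgeR adjusted p = 0.00901). Cpd photolyase differed by 0.01 (SE 0.09, edgeR adjusted p = 0.959). In this contrast 45.6% of all genes passed, 22.2% higher in 24-month fish and 23.4% lower, so calls for 2 of 3 genes are not far from the background. The cry5 call was lost without 2PM replicate C of the 24-month fish (−0.40, adjusted p = 0.0527), without 2AM replicate A of the 12-month fish (−0.45, adjusted p = 0.0512) or without 2PM replicate B of the 12-month fish (−0.43, adjusted p = 0.0536).

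By clock time, in contrasts added after the levels were seen, cry-dash was lower in 24-month fish at 8PM by −0.72 (SE 0.14, edgeR adjusted p = 0.00408, 23.4% of all genes). At that time it stood at 8.91 and 9.15 CPM in 24-month fish, against 15.6 and 13.3 CPM in 12-month fish. The other 3 clock times gave cry-dash differences between −0.38 and −0.08 (edgeR adjusted p 0.0645 to 0.689). Cry5 was lower in 24-month fish at 2PM by −0.94 (SE 0.24, edgeR adjusted p = 0.0142, 26.1% of all genes) and at 2AM by −0.80 (SE 0.24, adjusted p = 0.034, 22.6% of all genes), while at 8AM and 8PM it differed by −0.37 and 0.22 (adjusted p = 0.252 and 0.533). At 2PM cry5 stood at 9.17 and 12.6 CPM in 24-month fish, against 19.9 and 21.7 CPM in 12-month fish. Cpd photolyase passed at none of the 4 (0.28, −0.17, −0.31 and 0.30 at 8AM, 2PM, 8PM and 2AM; edgeR adjusted p 0.0805 to 0.319), where 31% of all genes passed at 8AM. A difference in daily course between collections was tested as an interaction, which 11.8% of all genes passed and none of the 3 did (edgeR adjusted p = 0.0535 for cpd photolyase, 0.102 for cry5 and 0.104 for cry-dash). DESeq2 called all 3 in this test (adjusted p = 0.00472, 0.0309 and 0.0421), where it called 4340 of 19550 genes. In edgeR the result also moved on leaving out 2AM replicate C or D of the 24-month fish. Each of these 2 fits leaves 1 library at 2AM of the 24-month fish, assumed to vary like the other groups. Both fits called more genes than the fit of all libraries, so their calls for the 3 genes are not read here.

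**Figure D3:**
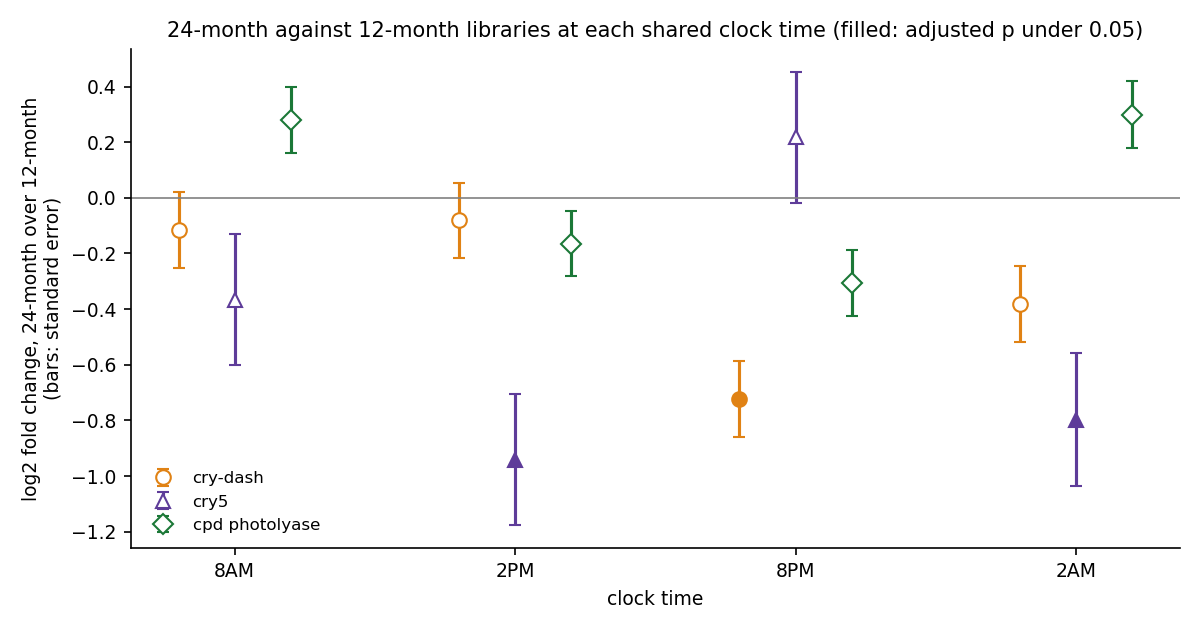
Log2 fold change of 24-month over 12-month fish with its standard error for cry-dash, cry5 and cpd photolyase at the 4 shared clock times. Filled symbols have an edgeR adjusted p under 0.05 and mark cry5 at 2PM (−0.94) and 2AM (−0.80) and cry-dash at 8PM (−0.72).

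The relation of the 3 genes to each other, to the light-induced clock repressors per2-Ohnolog1 and per2-Ohnolog2 and to clocka and clockb, subunits of the activator of the clock, was measured over libraries within each collection, on log2(CPM + 0.5). Of 15 relations in 24-month fish (n = 16), 4 had an adjusted permutation p under 0.05 for Pearson's r. The permutation treats libraries as independent, although 2 fish share each clock time, so its p can be too small in both collections. Cry-dash followed per2-Ohnolog2 (r = 0.84, rho = 0.78, adjusted permutation p = 0.0006), per2-Ohnolog1 (r = 0.70, rho = 0.70, adjusted p = 0.0091) and cpd photolyase (r = 0.68, rho = 0.56, adjusted p = 0.0091). Cpd photolyase followed clocka (r = 0.65, rho = 0.56, adjusted permutation p = 0.029), a relation that no longer passed without 2AM replicate C (adjusted permutation p = 0.0536) or 5PM replicate B (0.0515). By rank, the relations of cpd photolyase with clocka and with cry-dash did not pass (adjusted permutation p = 0.0946 for both). Without the 2 libraries farthest from the median of the first gene, r was 0.70, 0.75, 0.60 and 0.62 in the order given. Many other genes had a higher r in 24-month fish. Among 19783 genes, per2-Ohnolog2, per2-Ohnolog1 and cpd photolyase had ranks 272, 2080 and 2483 by r with cry-dash. Clocka had rank 746 by r with cpd photolyase.

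Cry5 had no relation past the threshold in 24-month fish. Its r was 0.31 with cry-dash (adjusted permutation p = 0.329), 0.52 with cpd photolyase (adjusted p = 0.0953, and r = 0.20 without the 2 farthest libraries), 0.30 and 0.33 with the per2 genes and 0.31 and 0.17 with clocka and clockb. Without 2PM replicate C, cry5 and cpd photolyase had r = 0.67 (adjusted permutation p = 0.018). Cry-dash had r = 0.16 with clocka and −0.08 with clockb, while cpd photolyase had r = 0.54 and 0.47 with the per2 genes and 0.40 with clockb, none past the threshold. Without 8AM replicate C or D, cpd photolyase and per2-Ohnolog1 passed (r = 0.72 and 0.64, adjusted permutation p = 0.012 and 0.0387), and without D so did per2-Ohnolog2 (r = 0.62, adjusted p = 0.0387). In 12-month fish (n = 8), no relation passed. Cpd photolyase had r = 0.94 with clockb and 0.82 with per2-Ohnolog2 (exact permutation, adjusted p = 0.0568 for both) and 0.88 and 0.84 with per2-Ohnolog1 and clocka. Cry-dash had r = 0.84 with per2-Ohnolog2 (exact permutation, adjusted p = 0.0568) and 0.79 with cpd photolyase (0.0702). Cry5 had r between −0.01 and 0.21 with the per2 and clock genes in 12-month fish, and between −0.79 and −0.70 without the 2 libraries farthest from the median of cry5, so these values rest on those libraries.

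**Figure D4:**
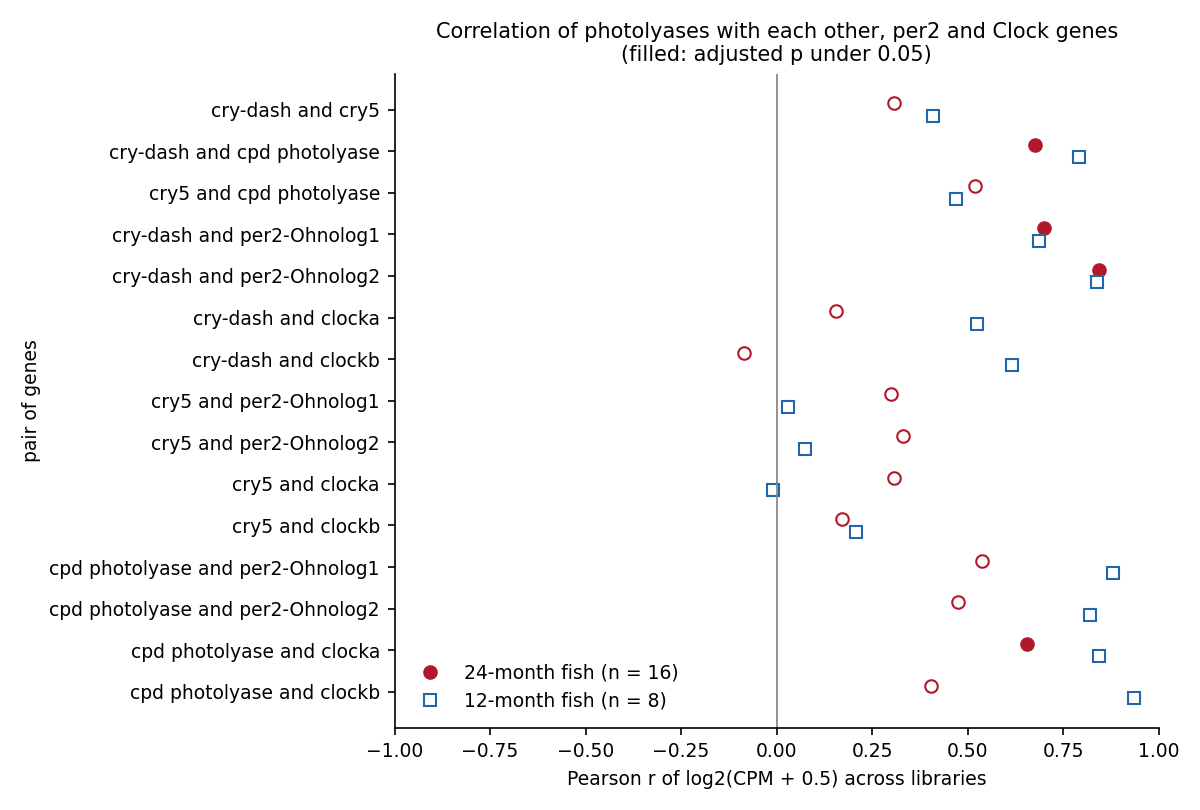
Pearson's r of log2(CPM + 0.5) for each of the 3 photolyase genes with the other photolyases, both per2 genes and both clock genes, over the 16 libraries of 24-month fish and the 8 of 12-month fish. Filled symbols have an adjusted permutation p under 0.05 and occur in the 24-month fish only: cry-dash with per2-Ohnolog2 (0.84), per2-Ohnolog1 (0.70) and cpd photolyase (0.68), and cpd photolyase with clocka (0.65).

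These relations hold changes that follow the clock time itself. When the mean of each clock time and collection was removed, none of the 15 relations of the deviations of the 12 pairs of fish passed an exact sign-swap test (smallest adjusted p = 0.516). The deviations of cry-dash and cpd photolyase then had r = 0.89, which was 0.16 without the 5PM pair of the 24-month fish. Where 1 pair outweighs the others in this way, r stays large under swapped signs, so the test can hardly reach a small p. Without the 5PM pair no relation passed the sign-swap test either (smallest adjusted p = 0.834). In the 4 relations named for 24-month fish, leaving out 5PM replicate A kept all 4 under the threshold (adjusted permutation p 0.0099 to 0.0175).

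In 24-month fish both per2 genes had their highest means at 11AM (95.0 CPM for per2-Ohnolog1 and 154 CPM for per2-Ohnolog2), a time not sampled in 12-month fish. Among the 4 shared clock times both were highest at 8AM in 24-month fish and at 8PM in 12-month fish. Per2-Ohnolog1 stood at 118 and 48.7 CPM at 8AM in 24-month fish, against 3.10 and 3.69 CPM at 8AM in 12-month fish, and its high in 12-month fish was at 8PM (54.8 and 43.9 CPM). Its interaction of collection and clock time passed, as did that of per2-Ohnolog2 (edgeR adjusted p = 0.00336 and 0.00829). Cry-dash at 8AM, by contrast, stood at 13.3 and 12.7 CPM in 24-month fish, against 14.7 and 14.1 CPM in 12-month fish. Fitted peaks of per2-Ohnolog1 lay at Zt 4.68 in 24-month fish and Zt 9.49 in 12-month fish, and those of per2-Ohnolog2 at Zt 3.23 and Zt 7.99. Over both collections clocka and clockb peaked at Zt 9.72 (SE 0.34 h) and Zt 10.5 (SE 0.35 h), later than the 3 photolyases. At 2PM against 2AM the per2 genes were higher by 3.26 (per2-Ohnolog1, SE 0.89, edgeR adjusted p = 0.0335) and 2.54 (per2-Ohnolog2, SE 0.43, adjusted p = 0.0048) and the clock genes by 2.65 (clocka, SE 0.32, adjusted p = 0.000319) and 1.41 (clockb, SE 0.20, adjusted p = 0.00127). The cpd photolyase difference of 1.77 lay between those of clockb and per2-Ohnolog2. Of the 13 clock genes that the study follows beside the photolyases, 11 varied with time of day and 10 differed between 2PM and 2AM, 8 of them higher at 2PM (17.2%, 11.2% and 5.23% of all genes).

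Among 19783 genes, those whose course over the 24 libraries was most like each photolyase were ranked by Pearson's r of log2 CPM centred within each collection, as a description with no p. The gene nearest to cry5 was ddb2, the subunit of the UV-damaged DNA binding protein that finds UV lesions for nucleotide excision repair, with r = 0.83 (0.82 in 24-month fish, 0.88 in 12-month fish). It was followed by pgbd5 and ENSXMAG00000028472 (r = 0.77 each), trim66 (0.77) and syf2 (0.75). Without 5PM replicate A ddb2 kept the first rank (r = 0.85). The next were then thrb (0.83), ENSXMAG00000015070 (0.82), ENSXMAG00000027553 (0.81) and pgbd5 (0.81), so the other names mostly changed. The gene nearest to cpd photolyase was ENSXMAG00000008128 (r = 0.94), and the next was xpc (r = 0.90, with 0.82 in 24-month fish and 0.99 in 12-month fish), the lesion sensor that starts nucleotide excision repair outside transcribed strands, ahead of LONRF3 (0.89), ENSXMAG00000019225 (0.88) and zbtb11 (0.88). Without 5PM replicate A xpc had r = 0.89 and rank 4. The 2 damage sensors belong to a repair pathway that needs no light.

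The nearest genes of cry-dash were ENSXMAG00000014727 (r = 0.92), vclb (0.91), ENSXMAG00000004490 (0.91), zbtb16a (0.90) and MCU (0.90). Without 5PM replicate A they were vclb (0.87), sdha (0.86), ENSXMAG00000014727 (0.85), NADK (0.85) and dhtkd1 (0.85), so 2 of 5 names stayed. The libraries share the single fish whose cry-dash value was 2.68 CPM and the common effect of clock time, and these r values contain both.

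The sensor xpc stood at 15.1 and 20.1 CPM at 8AM, 76.8 and 62.7 CPM at 11AM and 28.9 and 32.8 CPM at 2PM in 24-month fish, and all other 24-month pairs lay between 12.4 and 24.6 CPM. In 12-month fish it stood at 12.1 and 11.4 CPM at 8AM, 49.5 and 44.7 CPM at 2PM, 31.4 and 30.5 CPM at 8PM and 10.7 and 9.85 CPM at 2AM. Its order in 12-month fish was the order of cpd photolyase, a likeness for which xpc was picked. The gene xpc was higher at 2PM than at 2AM by 1.68 (SE 0.29, edgeR adjusted p = 0.00538). It was higher at 11AM than at 8AM by 1.98 (SE 0.27, edgeR adjusted p = 0.0415), beside cpd photolyase among the 11 genes called. Both contrasts use libraries over which xpc was picked.

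The partner of ddb1, ddb2, stood at 21.6 and 29.0 CPM at 8AM, 41.9 and 34.0 CPM at 11AM, 20.1 and 23.3 CPM at 2PM and 40.8 and 38.4 CPM at 5PM in 24-month fish. It then stood at 36.5 and 27.9 CPM at 8PM, 28.7 and 29.8 CPM at 11PM, 24.1 and 22.3 CPM at 2AM and 32.5 and 33.2 CPM at 5AM. The 3 highest means of both ddb2 and cry5 were at 11AM, 5PM and 5AM, a likeness for which ddb2 was picked. All 3 are clock times of the fish lettered ab to ak, so this shared course cannot be told apart from the run. At 11PM, also of that run, the cry5 pair (10.8 and 14.2 CPM) overlapped the 8PM pair (13.5 and 15.2 CPM). Whether the run has a part in this course was not tested. In 12-month fish the 2PM pair of ddb2 (30.7 and 30.02 CPM) was above the other 6 libraries (21.8 to 27.3 CPM), as it was for cry5. The gene ddb2 did not pass for time of day (edgeR adjusted p = 0.919) or for 2PM against 2AM (0.12, adjusted p = 0.688).

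**Figure D5:**
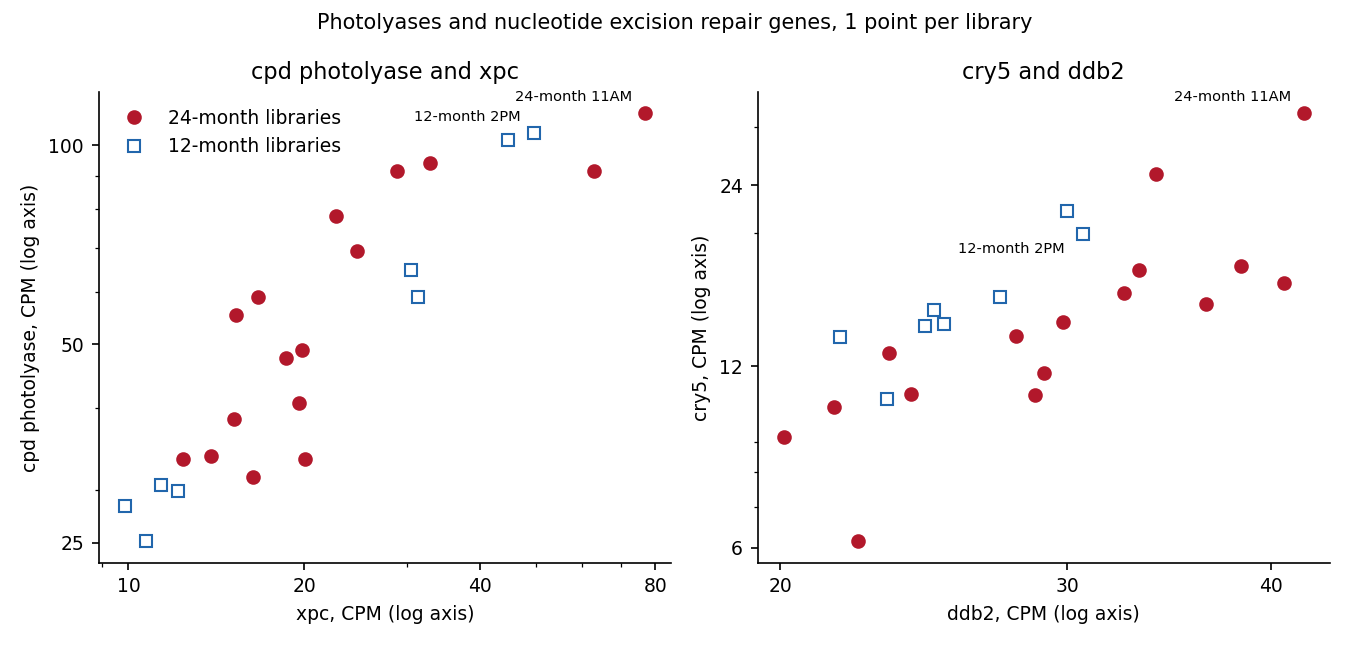
CPM of cpd photolyase against CPM of xpc (left) and of cry5 against ddb2 (right) on log axes, 1 point per library, with filled circles for 24-month fish and open squares for 12-month fish. Over 24 libraries centred within collection, r was 0.90 for the left pair and 0.83 for the right pair, and the 11AM libraries of 24-month fish have the 2 highest values of xpc (76.8 and 62.7 CPM) and of cry5 (31.6 and 25.0 CPM).

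The other UV repair genes were described through lists chosen with earlier results of these data known. Of 21 genes of nucleotide excision repair, 17 could be matched to an identifier, and 4 varied with time of day: xpc, ercc2, a helicase that opens DNA around the lesion (edgeR adjusted p = 0.00892), ddb1, the partner of ddb2 (0.0385), and gtf2h1, a subunit of the same repair and transcription factor as ercc2 (0.0436). This is near the 17.2% of all genes. Between 2PM and 2AM, xpc and ercc2 (0.58, SE 0.16, edgeR adjusted p = 0.0338) were higher at 2PM and uvssa, a factor of repair in transcribed strands, was lower (−0.51, SE 0.14, adjusted p = 0.0321), where 11.2% of all genes passed. The median over the 17 genes was 0.08, beside −0.01 over all genes tested. In 24-month against 12-month fish, 5 of the 17 were higher and 1 lower, with a median of 0.17 beside −0.01, and 45.6% of all genes passed (22.2% higher and 23.4% lower).

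Of 8 genes for translesion synthesis, which copies past unrepaired lesions, pcna, the replication clamp (0.91, SE 0.20, edgeR adjusted p = 0.0161), was higher at 2PM than at 2AM and poli, a lesion-bypass polymerase, was lower (−0.50, SE 0.14, adjusted p = 0.0377). Their median was −0.10, and 11.2% of all genes passed. For time of day only pcna of the 8 passed (edgeR adjusted p = 0.0213), beside 17.2% of all genes. The polymerase that bypasses CPDs, polh, had r = 0.65 with cry-dash (rank 1953 of 19783), 0.61 with cry5 (rank 104) and 0.51 with cpd photolyase (rank 1955). The other 7 had r between −0.85 and 0.58 with cry-dash, −0.31 and 0.03 with cry5, and −0.51 and 0.47 with cpd photolyase.

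Of 12 genes for D-box binding factors, 7 were matched, and all 7 varied with time of day in edgeR, beside 17.2% of all genes. At 2PM against 2AM, nfil3-5 (5.10, SE 0.39, edgeR adjusted p = 2.7e-06) and hlfa (1.10, SE 0.16, adjusted p = 0.00178) were higher, and dbpb (−4.95, SE 0.20, adjusted p = 4.7e-09) and tefb (−2.60, SE 0.15, adjusted p = 1.96e-07) were lower. Nfil3 and tefa varied with time of day (adjusted p = 0.000447 and 0.000645) without passing in this pair, and the median of the 7 was 0.55. Over the 24 centred libraries, r of cpd photolyase with the 7 ran from 0.81 for nfil3-5 to −0.67 for dbpb. Between these lay hlfa (0.65), nfil3 (0.31), nfil3-6 (0.30), tefa (−0.19) and tefb (−0.56). With nfil3-5 and dbpb, cry5 had r = 0.34 and −0.26, and cry-dash had r = 0.56 and −0.13. The highest r of cry-dash among the 7 was with nfil3-6 (0.75).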

How the data were processed

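The authors mapped quality-filtered paired-end RNA-Seq reads of skin to the *X. maculatus* genome v5.0 with TopHat2, counted them on Ensembl release 94 gene models with featureCounts and deposited raw counts per gene for each library, without normalization. Program versions, strandedness and multi-mapping were not given in the sources used here. All 24 columns were assigned to samples by label.

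The 3 photolyase genes and the gene lists were chosen with earlier results of these data known. Named beside them were per2-Ohnolog1, per2-Ohnolog2, clocka and clockb, the called genes of each list (at most 6) and the 5 genes most like each photolyase. Identifiers were paired with gene names from the study's figure of clock regulators and from the symbols beside identifiers in its supplementary tables (10738 genes). Sequences and coordinates of the genes are not given here.

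Counts were analysed in R 4.3.3 by the quasi-likelihood method of edgeR 4.0.16 (on limma 3.58.1), after TMM scaling, with the filterByExpr filter and Benjamini-Hochberg adjustment over all genes tested at 0.05, and it was tested on simulated data. The alternatives were DESeq2 1.42.0, its size factors in edgeR, total counts, no filter, a replicate block, no collection term, each collection alone and each library left out. CPM were computed per library total. Correlations used log2(CPM + 0.5) with two-sided permutation tests (100000 resamples for 16 libraries, exact for 8) adjusted over 15 relations per collection (Python 3.11.15, numpy 2.4.6, pandas 2.3.3, scipy 1.17.1). Nothing says whether the 2 fish of a clock time came from separate tanks, so p-values measure the spread between these fish only. Fish of the same replicate letter (A to D) were checked for pairing, taken as given where all pairs of clock times had deviations correlated above 0.1. In 12-month fish all 6 did (0.101 to 0.22), a sign from the data and not from the labels. In 24-month fish 4 of 6 did for letters C and D and 0 of 6 for A and B. Replicate letters are not the letters of the fish labels. In 12-month fish, 2AM replicate A is labelled b where the other A fish are labelled a. There, 8PM replicate B is labelled b where the other B fish are labelled c. The main fits held no term for pairing, which entered only as the replicate block.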

Additional observations from a re-analysis of the deposited data

How the results depend on the processing

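The calls of cpd photolyase for time of day, for 2PM against 2AM and for the 24-h cosine, and the calls of cry-dash for 2PM against 2AM and for the cosine, held under DESeq2, its size factors, total counts, no filter, the replicate block and the omission of each library. Leaving out each library in turn moved the number of genes called between 1773 and 4857 for time of day, 371 and 3279 for 2PM against 2AM, 210 and 6453 for the interaction, 2099 and 5063 for the cosine, 0 and 16285 for the 8 steps of the 24-month fish together and 4 and 132 for early light against late dark. The widest ranges include libraries whose partner then stands alone and is assumed to vary like the other groups. Over the same omissions the difference between collections lay between −0.59 and −0.40 for cry5 and between −0.033 and 0.066 for cpd photolyase, the adjusted interaction p between 0.0317 and 0.347 for cry-dash, 0.0089 and 0.322 for cry5 and 0.0219 and 0.158 for cpd photolyase, and the adjusted cosine p of cry5 between 0.0266 and 0.154. The early light difference lay between 0.98 and 1.12 for cry-dash and between 0.68 and 0.83 for cpd photolyase. Signs changed for cry-dash in 8PM minus 5PM (−0.40 to 1.003), 2AM minus 11PM (−0.066 to 0.18) and 5AM minus 2AM (−0.057 to 0.15), and for r of cry5 with clockb in 24-month fish (−0.0031 to 0.27) and, in 12-month fish, with per2-Ohnolog1 (−0.19 to 0.49), per2-Ohnolog2 (−0.17 to 0.42), clocka (−0.22 to 0.43) and clockb (−0.049 to 0.55).

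DESeq2 called 5769 genes for time of day, 3683 for 2PM against 2AM, 4340 for the interaction, 4546 for the cosine, 4375 over the 8 steps and 408 for early light, against 3263, 2120, 2302, 2999, 1287 and 19 in edgeR. It called all 3 photolyases for the interaction (adjusted p = 0.0421 for cry-dash, 0.0309 for cry5 and 0.00472 for cpd photolyase), cry5 for the cosine (0.0313), and cry-dash (1.04) and cpd photolyase (0.75) for early light. With its size factors in edgeR the interaction of cpd photolyase had an adjusted p of 0.0467. With total counts only, 10 genes passed for early light, and cry-dash differed by −0.013 between 2AM and 11PM. In CPM with TMM library sizes, r of cry5 and clocka in 12-month fish was 0.019. With the replicate block, 353 genes passed over the 8 steps and 8 for early light, cry-dash had an adjusted p of 0.014 for time of day and differed by −0.094 between 5AM and 2AM, and 11AM against 8AM of cpd photolyase had an adjusted p of 0.167. In 24-month fish the replicate letters do not meet the mark set for pairing. The block does not separate the run m to w from the run ab to ak. With the block in 12-month fish alone, an alternative chosen after the data were seen, 9093 genes passed for time of day, as did cry5 (0.00406), and 4517 for 2PM against 2AM, as did cry5 (0.57), and no call of the 3 photolyases in these tests changed from the 12-month values without it. With no collection term, 883, 539 and 1629 genes passed for time of day, 2PM against 2AM and the cosine, and cry-dash had an adjusted p of 0.0595 for time of day. In 24-month fish alone these counts were 237, 931 and 288, with an adjusted p of 0.0656 for cry-dash (time of day) and 0.0551 for cpd photolyase (cosine). In 12-month fish alone 8208 genes passed for time of day, as did cry5 (0.00606), and 3913 for 2PM against 2AM, as did cry5 (0.57). For early light, pooling 8 libraries into 2 groups gave 2 genes, and setting 11AM and 2PM against 5AM and 8AM gave 1475 genes and 1.31 for cpd photolyase. Without both 5PM libraries 106 genes passed, with 1.03 for cry-dash and 0.74 for cpd photolyase. The cause of these differences was not tested.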
